A study of Mus musculus with 26 samples.

Results

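Common myeloid progenitors (CMP) were compared with the multipotent progenitors named MPPFL- to see which erythroid, megakaryocyte and mast cell genes were already expressed in MPPFL-. The comparison took the 3 arrays titled CMP and the 5 titled MPP_FLneg, called MPPFL- here, which are 8 of the 26 Affymetrix mouse arrays of the series, and covered 18193 genes. Each array held RNA of 1 progenitor sample from the bone marrow of C57/Bl6 males aged 2 months. The labels name no mutant allele and no treatment for any group. Arrays of the MPPFL+ multipotent progenitors (n = 3) and of the granulocyte-macrophage progenitors (GMP, n = 3), from bone marrow of the same strain, sex and age, are given beside them. FL is read here as Flt3, the receptor of the cytokine Flt3 ligand. The labels give neither the sort gates nor whether replicates came from separate animals, so the spread between samples may be technical. P-values and SEs rest on 1 spread per gene, pooled over all 26 arrays of the 8 populations of the series. Where a gene lay at the floor in most populations, its SE can understate the spread of the CMP arrays. A population with scattered values can raise it.

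Red cells, megakaryocytes and mast cells share several transcription factors. Gata1 and Gata2 are zinc finger proteins that bind GATA motifs in DNA, and they act together with Tal1, Lmo2, Ldb1, Zfpm1 (Friend of GATA) and Gfi1b. Gata1 is required for red cell and platelet formation, and CMP are classically described as the source of both the granulocyte-macrophage and the megakaryocyte-erythroid branches. Megakaryocytes, which shed platelets, carry adhesion receptors and granule proteins, while mast cells and basophils store proteases such as carboxypeptidase A3, the product of Cpa3, and carry the high-affinity receptor for IgE.

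Values are levels on a log2 scale as deposited, so a difference of 1 is a 2-fold change. The lowest value of the table, 2.17, recurred on every array and took 30.2% to 37.1% of the probe sets on each. A gene was called on in a population when every array was at or above 5.31, which is the middle of the distribution of mean levels over genes. It was called at the floor when every array lay within 1 unit of the lowest value, and between otherwise. By this rule 49% of all genes were on in MPPFL-, 47.1% in CMP, 49.8% in MPPFL+ and 47.7% in GMP. Levels were compared between populations for the same gene and never between genes, since probe sets differ in brightness.

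Several technical measures separated the groups. Poly-A controls spiked into the RNA averaged 3.63 to 4.68 on the MPPFL- arrays and 8.59 to 9.34 on the CMP arrays, so that what set these controls apart and the population cannot be told apart. The difference between the 3' and 5' probe sets of actin, which grows as the labelled RNA gets shorter, was 3.12 to 4.08 in MPPFL- and 1.68 to 2.96 in CMP. Genes of the immediate early and heat shock response averaged 7.03 to 8.35 in MPPFL- and 9.23 to 9.61 in CMP. Of 12 markers of macrophages, dendritic cells and NK cells, 2 were lower in CMP, 1 was higher and 9 did not pass. Over all genes 18.7% were lower and 10.8% higher. C1qb fell from 6.03, 6.25, 4.82, 7.91 and 7.03 in MPPFL- to 3.36, 3.32 and 3.38 in CMP and Mrc1 from a mean of 6.07 to 4.39, whereas Adgre1, a surface marker of macrophages, rose from 4.37 to 6.12. The mean over these 12 genes was 4.01 to 5.31 on the MPPFL- arrays and 3.96 to 4.33 on the CMP arrays, and the part of any of these measures in the results was not tested. Of 10 B and T cell genes 8 were at the floor in both populations, Cd79a, Pax5, Cd3d and Cd3g among them, while Cd79b was on in both (9.10 and 8.62), and none of the 10 passed. Of 9 stromal and endothelial genes 6 were at the floor in both, Cdh5 and Kdr among them, while Emcn fell from 6.05 to 3.29 and Pecam1 rose from 3.82 to 6.20. MPPFL- replicate 1 stood apart from the other MPPFL- arrays for many lineage genes. The differences of Gata1, Aqp1, Gp1bb, Vwf and Cpa3 are given with and without it. CMP replicate 1 also differed from the other CMP arrays, with 30.2% of probe sets at the lowest value against 36.9% and 34.7%. It was the lowest CMP array for 55.7% of the lineage genes on in CMP and for 51.6% of all genes on in CMP.

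Marker genes were set against the names of the populations. Flt3 was at 11.64, 10.71, 11.04, 10.69 and 10.90 in MPPFL- and at 10.77, 10.69 and 10.83 in CMP, against a mean of 13.31 in MPPFL+. The 2 populations overlapped, and Flt3 did not pass the test between them (difference -0.23, SE 0.36, adjusted p = 0.82). Flt3 in MPPFL- was lower than in MPPFL+ by 2.32 (SE 0.36, adjusted p = 0.00015), yet it was on in MPPFL-. Cd34, a surface protein of progenitors, averaged 13.09 ± 0.23 over the 5 MPPFL- arrays and 13.30 ± 0.67 over the 3 CMP arrays (SD) and did not pass (difference 0.21, SE 0.23, adjusted p = 0.61). Fcgr3, an IgG receptor that marks myeloid progenitors, was higher in CMP by 4.23 (SE 0.20, adjusted p = 1.1e-11), from 4.27 to 8.50, and stood at 12.23 in GMP.

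Of all 18193 genes, 1965 (10.8%) were higher in CMP and 3396 (18.7%) were lower, by limma with a Benjamini-Hochberg adjusted p under 0.05. The arrays of the 2 populations did not overlap, with CMP higher, for 9.45% of all genes and, with CMP lower, for 18.2%. The median difference over the 9097 genes that were not dim was -0.22, and quantile normalization moved it by 0.22 and median centring by 0.21. With those scalings 51.7% and 50.9% of the called genes were higher in CMP, in place of 36.7%. A difference smaller than this shift therefore has no settled direction. Each of the 8 arrays correlated best with an array of its own population, with r across genes of at least 0.994 within MPPFL- and 0.979 within CMP, and of 0.955 to 0.972 between them.

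Of 135 measured lineage genes, 71 were already on in MPPFL-, against 79 in CMP, 59 in MPPFL+ and 65 in GMP. Over all genes 49% were on in MPPFL-, 47.1% in CMP, 49.8% in MPPFL+ and 47.7% in GMP, so the count of 71 is near the general share. Of the 71, 13 were not on in MPPFL+, against 198 of all 8913 genes on in MPPFL-. The 71 were 15 of 15 regulators shared by the lineages, 28 of 52 erythroid genes, 21 of 38 megakaryocyte genes, 6 of 23 mast cell and basophil genes and 1 of 7 eosinophil genes. Between the populations 46 of the 135 were higher in CMP, 29 were lower and 60 did not pass. Over all genes 10.8% were higher and 18.7% lower, and the median difference was 0.04 for the lineage genes and 0 for all genes. Of all genes 7059 were at the floor in both populations, and over those that were not dim the median was -0.22. Of the 79 genes on in CMP, 68 were on in MPPFL-, against 97% of all genes on in CMP. Of the 71 genes on in MPPFL-, the same 68 were on in CMP, where 18 were higher, 26 lower and 24 did not pass. Among all 8913 genes on in MPPFL-, 15.3% were higher in CMP and 34.4% lower. Of the 46 lineage genes higher in CMP those 18 were on in MPPFL-, against 69.3% of all genes higher in CMP. Only Sox6, Gucy1a1 and Selp were on in MPPFL- and not in CMP. In the other direction, 11 genes were on in CMP and not in MPPFL-, and all 11 passed as higher. They were Ermap, Aqp1, Car1, Klf1, Slc4a1, Gp1bb, F13a1, Ppbp, Hdc, Mcpt8 and Ms4a2. The rule asks for every array, which is 5 arrays in MPPFL- and 3 in CMP. Replicate 1 alone kept Gp1bb and Hdc from being on in MPPFL-. Aqp1, Car1, Ppbp, Mcpt8 and Ms4a2 were above the limit on some MPPFL- arrays. Judged by the mean over arrays, 9 mast cell and basophil genes were on in MPPFL-, in place of 6. A further 30 genes were at the floor in both, globin, chymase and eosinophil granule genes among them.

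**Figure D1:**
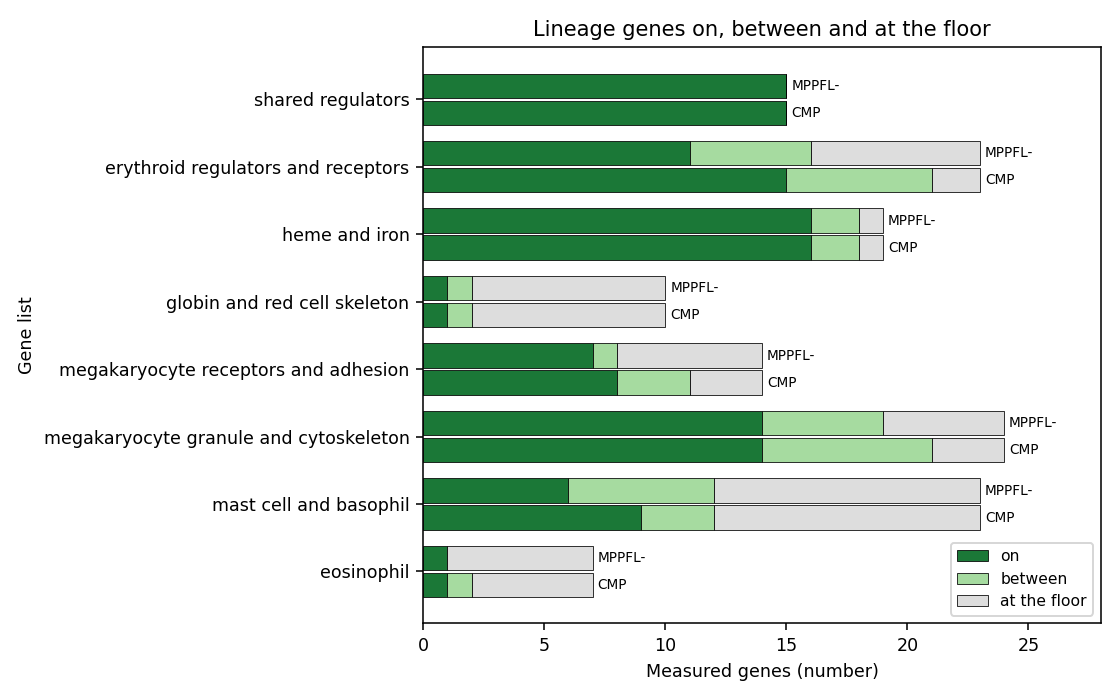
Number of measured genes of each lineage list that were on, between or at the floor, in MPPFL- (upper bar of each pair, n = 5 arrays) and in CMP (lower bar, n = 3 arrays); the horizontal axis counts genes. The shared regulators were on in both populations, while 11 and then 15 of the 23 erythroid regulators and receptors were on, and 8 of the 10 globin and red cell skeleton genes were at the floor in both.

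**Figure D2:**
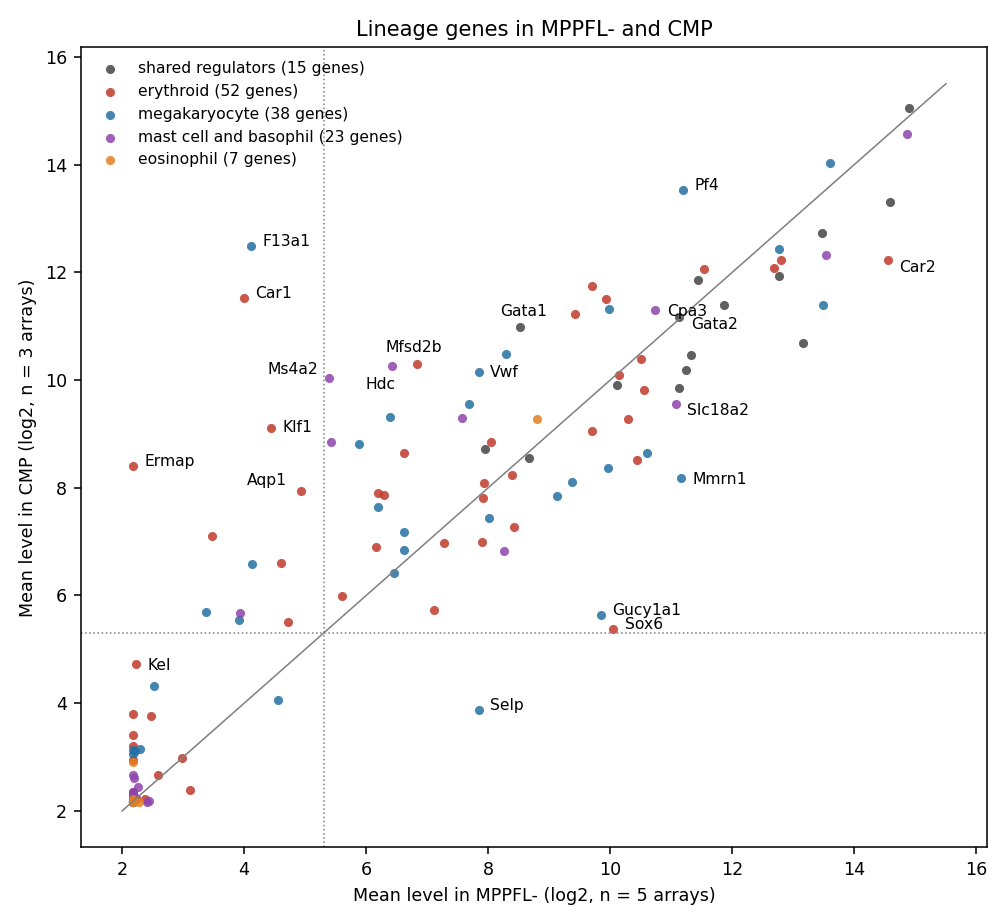
Mean level of the 135 lineage genes in MPPFL- (horizontal, log2, n = 5) and in CMP (vertical, log2, n = 3), 1 point per gene coloured by list; the solid line marks equal levels and the dotted lines the limit of 5.31 for being on. Ermap, Car1 and F13a1 lie far above the line of equal levels, Sox6, Gucy1a1 and Selp far below it, and Gata2 and Cpa3 near it.

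The regulators shared by these lineages were on in MPPFL- on every array. Gata1 alone among the 15 was higher in CMP, though 4 were with quantile normalization or median centring and 2 without CMP replicate 1. Gata1 was at 6.97, 9.23, 8.51, 8.96 and 8.92 on the 5 MPPFL- arrays and at 10.89, 10.94 and 11.11 on the 3 CMP arrays. Each CMP array lay above each MPPFL- array, and the lowest MPPFL- value was that of replicate 1. The difference was 2.46 (SE 0.36, adjusted p = 2.6e-05), and without MPPFL- replicate 1 it was 2.07. In bulk RNA, more cells that express a gene and more RNA per cell cannot be told apart. In MPPFL+ Gata1 was at 4.10, 3.72 and 4.39, below every MPPFL- array, and in GMP it averaged 5.90.

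Gata2, which precedes Gata1 in progenitors, was at 10.97, 11.15, 11.33, 11.08 and 11.10 in MPPFL- and at 11.21, 11.20 and 11.09 in CMP. These values overlapped, and the difference of 0.04 (SE 0.31) did not pass. Gfi1b, a repressor needed for red cells and platelets, did not pass either, with means of 8.67 ± 0.23 and 8.55 ± 0.28 (SD) and a difference of -0.12 (SE 0.29). Zfpm1, the Gata1 cofactor, was at 10.11 ± 0.29 and 9.91 ± 0.56 and did not pass (difference -0.20, SE 0.29). Runx1, a factor of stem cell and platelet formation, was at 11.44 ± 0.17 and 11.85 ± 0.12 and did not pass (difference 0.42, SE 0.22, adjusted p = 0.16). Its arrays did not quite overlap, with a highest MPPFL- value of 11.723 and a lowest CMP value of 11.725. Runx1 was called higher under quantile normalization, at 0.59. Of its 5 other probe sets 2 passed as higher in CMP and 1 as lower. All 4 were lower in GMP than in MPPFL- by their means, with Gata2 at 7.68, Gfi1b at 4.07, Zfpm1 at 3.97 and Runx1 at 10.94.

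In this list 7 of the 15 were lower in CMP and 7 did not pass, and the median difference was -0.47. Among all genes on in MPPFL-, 34.4% were lower in CMP. The largest fall was that of Erg, an ETS factor of stem cells and megakaryocytes, from 13.05, 12.95, 13.15, 13.22 and 13.43 in MPPFL- to 10.49, 10.89 and 10.65 in CMP. No arrays overlapped, and Erg fell by 2.48 (SE 0.20, adjusted p = 1.8e-08). Fli1, the related ETS factor of megakaryocytes, fell by 1.26 (SE 0.23, adjusted p = 0.00033). Tal1 and Lmo2, partners in the complex with Gata1, fell by 0.86 (SE 0.17, adjusted p = 0.00049) and 1.29 (SE 0.19, adjusted p = 3.1e-05). Nfe2, which drives late platelet genes, fell by 0.84 (SE 0.19, adjusted p = 0.0018), and Cbfa2t3, a corepressor of the same complex, fell by 1.06 (SE 0.16, adjusted p = 4.1e-05). With the spike-in cluster as a random block, Tal1, Fli1, Nfe2 and Etv6 no longer passed, and 3 of the 15 remained lower. Etv6, an ETS repressor, fell by 0.73 (SE 0.21, adjusted p = 0.013) on its brightest probe set, whereas the mean of its probe sets gave a rise of 1.05, so its direction depends on the probe set.

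**Figure D3:**
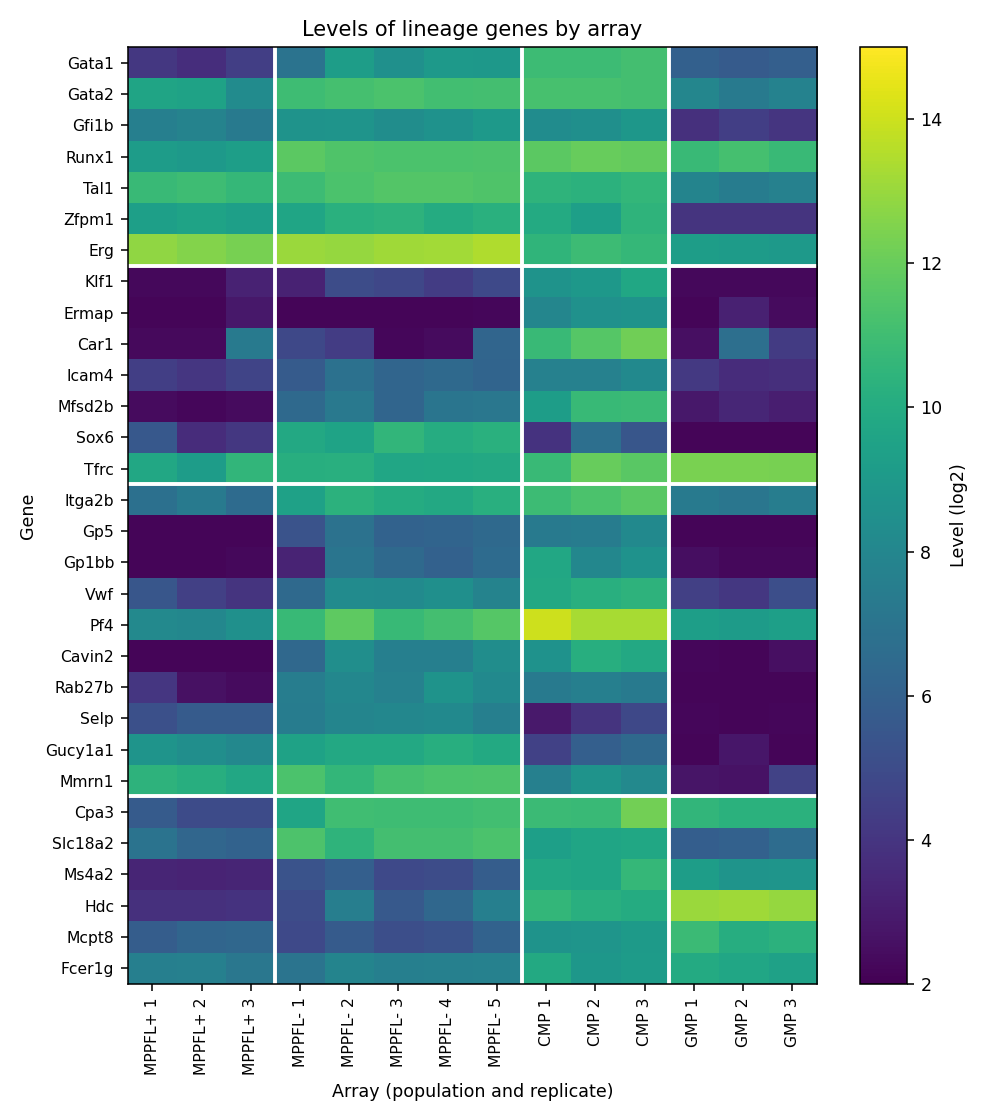
Level (log2, colour) of 30 lineage genes on each array of MPPFL+, MPPFL-, CMP and GMP; white lines part the populations and, from top to bottom, shared regulators, erythroid, megakaryocyte and mast cell genes. Gata1 and the megakaryocyte genes Gp5, Cavin2 and Vwf step up from MPPFL+ to MPPFL- and again to CMP, while Sox6 and Selp are brightest in MPPFL-.

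Promoter sequences of lineage genes are shown because Gata1 differed between the populations and its family binds GATA motifs. RefSeq sequences of the mouse build GRCm38.p6 were found for 109 of the 135 lineage genes, and the 250 bases before the start site were searched on both strands for AGATAA and TGATAA, where 2 matches may overlap. Such a motif was present in 35 of the 109 (32.1%), against 16.9% of 27025 promoters of the same length and 11.7% of the promoters of all genes tested. It was present in 12 of 37 lineage genes higher in CMP (32.4%), in 5 of the 25 of these that were on in CMP (20%) and in 5 of 22 lower in CMP (22.7%). Among all genes on in CMP the share was 8.52%. The 5 sequences shown were chosen because they hold the motif. They are of a receptor gene on in MPPFL- (Gp5), of the mast cell gene Cpa3, on in both populations, and of 3 genes that were on in CMP and not in MPPFL- (Klf1, Ms4a2 and Ermap). Of the genes on in CMP and not in MPPFL-, 9 had a promoter sequence, and the other 6 (Aqp1, Gp1bb, F13a1, Ppbp, Hdc and Mcpt8) held no such motif. The sequences read 5' to 3' along the gene and end at the base before the start site, with the motif, or its reverse complement, in capitals.
Gp5, chr16:30310782-30311031, minus strand: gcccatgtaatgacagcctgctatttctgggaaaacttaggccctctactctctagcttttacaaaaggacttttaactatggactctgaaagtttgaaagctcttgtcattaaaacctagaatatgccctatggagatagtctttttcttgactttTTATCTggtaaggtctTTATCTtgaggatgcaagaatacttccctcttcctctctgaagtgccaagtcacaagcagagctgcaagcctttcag
Cpa3, chr3:20242182-20242431, minus strand: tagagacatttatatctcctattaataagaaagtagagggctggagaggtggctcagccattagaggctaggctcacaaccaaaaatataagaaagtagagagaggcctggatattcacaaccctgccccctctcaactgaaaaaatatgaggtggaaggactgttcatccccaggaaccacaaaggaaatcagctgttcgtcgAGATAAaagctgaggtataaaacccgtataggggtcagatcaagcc
Klf1, chr8:84901732-84901981, plus strand: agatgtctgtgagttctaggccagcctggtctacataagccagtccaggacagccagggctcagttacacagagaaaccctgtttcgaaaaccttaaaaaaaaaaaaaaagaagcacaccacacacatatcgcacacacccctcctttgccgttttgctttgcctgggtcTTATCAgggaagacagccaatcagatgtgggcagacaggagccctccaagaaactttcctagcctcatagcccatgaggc
Ms4a2, chr19:11623720-11623969, minus strand: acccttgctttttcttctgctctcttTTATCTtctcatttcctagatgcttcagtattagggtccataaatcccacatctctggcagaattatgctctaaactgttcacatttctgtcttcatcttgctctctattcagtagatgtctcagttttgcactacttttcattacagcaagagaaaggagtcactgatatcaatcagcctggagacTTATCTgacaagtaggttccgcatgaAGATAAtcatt
Ermap, chr4:119189996-119190245, minus strand: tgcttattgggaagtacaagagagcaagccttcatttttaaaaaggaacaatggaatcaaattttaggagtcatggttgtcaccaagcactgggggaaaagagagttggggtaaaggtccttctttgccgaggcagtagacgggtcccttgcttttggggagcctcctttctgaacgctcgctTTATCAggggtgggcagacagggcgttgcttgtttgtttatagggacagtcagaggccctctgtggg
Counted from the start site, the motifs begin at -93 and -77 in Gp5, -46 in Cpa3, -80 in Klf1, -67 in Ermap and -224, -37 and -11 in Ms4a2. A match to these letters is a description and does not show that a factor binds there.

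Of 23 measured erythroid regulators and surface proteins, 15 were higher in CMP, 6 were lower and 2 did not pass. Over all genes 10.8% were higher and 18.7% lower. The median difference of the 23 was 1.27, and 11 of them were on in MPPFL- against 15 in CMP. Klf1, the factor that activates adult globin and other red cell genes, was at 3.24, 5.01, 4.75, 4.32 and 4.86 in MPPFL-, between the floor and the limit for being on. It was at 8.67, 8.92 and 9.74 in CMP, and the difference was 4.68 (SE 0.31, adjusted p = 1.3e-09). The arrays did not overlap, and Klf1 averaged 2.59 in MPPFL+ and 2.27 in GMP. Ermap, an erythroid membrane protein of the butyrophilin family that carries the Scianna blood group, was at 2.17, 2.17, 2.17, 2.17 and 2.23 in MPPFL- and at 7.98, 8.56 and 8.65 in CMP. It was the lineage gene that went from the floor in MPPFL- to on in CMP, at least 74.2-fold higher (difference 6.21, SE 0.18, adjusted p = 1.3e-14), the lower bound arising because MPPFL- lay at the floor.

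Car1, carbonic anhydrase 1 of red cells, scattered in MPPFL- at 4.83, 4.31, 2.21, 2.39 and 6.23 and was at 10.83, 11.57 and 12.16 in CMP, a difference of 7.53 (SE 1.05, adjusted p = 1.8e-05). Every CMP array was higher, although the MPPFL- arrays ranged from the floor to a level above the limit for being on. Aqp1, a water channel of red cells, was at 2.64, 5.77, 5.27, 5.26 and 5.76 in MPPFL-, where replicate 1 was the lowest, and at 7.36, 8.01 and 8.44 in CMP. The difference was 3.00 (SE 0.50, adjusted p = 0.00012), and it was 2.43 without MPPFL- replicate 1. Slc4a1, the anion exchanger band 3, went from 3.47 to 7.10, a difference of 3.63 (SE 0.42, adjusted p = 2.2e-06), and averaged 6.94 in GMP. Kel, the Kell blood group protein, was at the floor in MPPFL- (2.17 to 2.39) and at 5.10, 4.39 and 4.71 in CMP. The difference was at least 2.50 (SE 0.09, adjusted p = 1.7e-13), a lower bound since MPPFL- lay at the floor. Its SE pooled populations that sat at the lowest value on every array, MPPFL+ and GMP among them. The SD over the CMP arrays was 0.35. Epor, the erythropoietin receptor, was low in both, at 2.20, 3.22, 2.33, 2.18 and 2.46 in MPPFL- and 2.35, 3.78 and 5.13 in CMP. The arrays overlapped, and the difference of 1.27 (SE 0.36, adjusted p = 0.011) no longer passed when the 8 arrays were fitted alone.

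Other erythroid genes were on in MPPFL- and higher still in CMP. Mfsd2b, a sphingosine 1-phosphate exporter of red cells and platelets, was at 6.46, 7.26, 6.22, 7.06 and 7.17 in MPPFL- and at 9.26, 10.75 and 10.88 in CMP, while in MPPFL+ it was at the floor (2.39, 2.22 and 2.39). The 2 populations did not overlap, and the difference was 3.46 (SE 0.28, adjusted p = 2.0e-08). Icam4, an erythroid adhesion protein, rose from 6.29 to 7.87 (difference 1.58, SE 0.23, adjusted p = 2.3e-05). E2f2, a cell cycle factor of late erythroid cells, rose from 6.63 to 8.65 (difference 2.02, SE 0.21, adjusted p = 4.9e-07). E2f2 averaged 8.26 in MPPFL+ and 8.73 in GMP, so its level in CMP was not particular to CMP. Tfrc, the transferrin receptor that imports iron, rose from 9.93 to 11.50 (difference 1.57, SE 0.27, adjusted p = 0.00016) and was higher again in GMP, at 12.35.

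The 6 erythroid genes that were lower in CMP were Sox6, Car2, Klf3, Zbtb7a, Bcl11a and Gypc. Sox6, a repressor of embryonic globin genes, showed the largest fall of the lineage genes, from 9.84, 9.54, 10.55, 10.05 and 10.23 in MPPFL- to 3.92, 6.74 and 5.48 in CMP. The CMP arrays scattered widely, yet all lay below MPPFL-, and Sox6 fell by 4.66 (SE 0.43, adjusted p = 1.5e-07). It averaged 4.44 in MPPFL+ and was at the lowest value in GMP, so that MPPFL- had the highest level of these 4 populations. Car2, carbonic anhydrase 2, was at 14.66, 14.56, 14.51, 14.54 and 14.47 in MPPFL- and 11.46, 12.28 and 12.95 in CMP and fell by 2.32 (SE 0.28, adjusted p = 2.9e-06), in the opposite direction to Car1. Zbtb7a, also known as LRF, fell by 1.14 (SE 0.26, adjusted p = 0.0019), and Bcl11a, the repressor of fetal globin, fell by 0.60 (SE 0.20, adjusted p = 0.028). The call of Bcl11a was lost in several alternatives, quantile normalization among them, and Klf3, which fell by 1.92 (SE 0.25, adjusted p = 8.3e-06), was at 0.08 with the mean of its probe sets.

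Heme synthesis and iron genes were mostly on in both populations, 16 of 19 in each. In this list 6 were higher in CMP, 4 lower and 9 did not pass, and the median difference of -0.05 was smaller than the shift between scalings. The shares over all genes were 10.8% higher and 18.7% lower, so the number lower was near the general share. Alas1, the housekeeping form of the first enzyme of heme synthesis, was at 9.39, 9.69, 9.39, 9.32 and 9.33 in MPPFL- and 10.50, 11.68 and 11.52 in CMP and rose by 1.81 (SE 0.28, adjusted p = 5.7e-05). It was higher still in GMP (14.00). Alas2, the erythroid form of the same enzyme, stayed at the table's minimum throughout MPPFL- and was at 2.17, 4.51 and 3.57 in CMP. Its difference of 1.25 (SE 0.35, adjusted p = 0.0099) rested on CMP replicates 2 and 3, as CMP replicate 1 was at that minimum too. Without CMP replicate 2 Alas2 no longer passed (adjusted p = 0.099). Tmem14c, a mitochondrial protein needed to form protoporphyrin, rose by 2.04 (SE 0.19, adjusted p = 1.5e-07), and Abcb10, a mitochondrial transporter, by 1.71 (SE 0.52, adjusted p = 0.017). By their means both were higher in GMP than in CMP, Tmem14c at 12.01 against 11.74 and Abcb10 at 9.26 against 7.90. Alad, the second enzyme of the pathway, did not pass (11.53 ± 0.31 and 12.06 ± 0.35, difference 0.52, SE 0.31), while the later enzymes Urod and Ppox fell by 0.57 (SE 0.17, adjusted p = 0.014) and 0.92 (SE 0.32, adjusted p = 0.039). The calls of Urod and Ppox were lost under median centring, and the mean of its probe sets reversed Cpox, which had not passed.

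Of 10 measured globin and red cell skeleton genes, 8 were at the floor in both populations, and the alpha globin gene Hba-a1 sat at the table's minimum on each of the 8 arrays. Its probe set stood at that minimum in all 8 populations of the series. The other globin genes measured were Hba-x, Hbb-bh1 and Hbb-y, and no adult beta globin gene was among the 10. The floor in this list therefore does not show that adult globin was absent. Tmod1, a cap of actin filaments, was the member on in both, at 8.39 ± 0.29 in MPPFL- and 8.24 ± 0.91 in CMP (difference -0.15, SE 0.32), and did not pass. Ank1, the ankyrin of the red cell membrane, was the 1 member called higher, by 0.79 (SE 0.28, adjusted p = 0.042), with arrays that overlapped (4.49, 4.67, 4.67, 5.01 and 4.75 in MPPFL-, 6.46, 4.67 and 5.40 in CMP). Its call was lost without any 1 of 6 arrays, among them MPPFL- replicate 1 and CMP replicate 1.

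Of 14 measured platelet adhesion receptors, 8 were higher in CMP, none was lower and 6 did not pass. Over all genes 10.8% were higher and 18.7% lower. The median difference of these receptors was 0.93. In MPPFL- 7 were on, of which 4 were higher in CMP and 3 did not pass. Itga2b, the alpha chain of the fibrinogen receptor (CD41), was at 9.46, 10.36, 9.99, 9.87 and 10.21 in MPPFL- and 10.93, 11.31 and 11.69 in CMP. The populations did not overlap, and the difference was 1.33 (SE 0.37, adjusted p = 0.009). With the 3' to 5' measure as a covariate Itga2b no longer passed (adjusted p = 0.099), nor with the spike-in cluster as a block. Itgb3, its beta chain, was at 5.68, 6.89, 6.64, 6.03 and 6.72 and 9.48, 9.21 and 9.24 and rose by 2.92 (SE 0.37, adjusted p = 5.9e-06).

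The components of the von Willebrand factor receptor differed among themselves. Gp5, glycoprotein V, was at 5.33, 6.92, 6.10, 6.19 and 6.46 in MPPFL- and at 7.29, 7.45 and 8.18 in CMP, with no overlap, and rose by 1.44 (SE 0.23, adjusted p = 6.7e-05). In MPPFL+ and GMP it was at the floor on all arrays, with means of 2.18 and 2.18. Gp1bb, glycoprotein Ib beta, was at 3.31, 7.04, 6.44, 6.02 and 6.57 in MPPFL-, so that replicate 1 alone kept it from being on there. It was at 9.80, 8.01 and 8.61 in CMP, a difference of 2.93 (SE 0.55, adjusted p = 0.00036), or 2.29 without MPPFL- replicate 1. The call was lost when the 8 arrays were fitted alone (adjusted p = 0.073). Gp9, glycoprotein IX, was on in both at 6.62 ± 0.61 and 6.84 ± 0.33 and did not pass (difference 0.23, SE 0.43).

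Among the remaining receptors, F2r, the thrombin receptor PAR1, was at 13.30, 13.65, 13.70, 13.63 and 13.71 in MPPFL- and 14.33, 13.71 and 14.04 in CMP and did not pass (difference 0.43, SE 0.22). The values overlapped, and F2r was far lower in GMP, at 8.97. Cd9, a tetraspanin of platelets and stem cells, rose by 2.18 (SE 0.46, adjusted p = 0.0011), from 8.30 to 10.48, and lost its call with the 3' to 5' covariate. Clec1b, the podoplanin receptor CLEC-2, was at the floor in MPPFL- (2.20 to 3.05) and at 3.66, 3.88 and 5.44 in CMP (difference of at least 1.81, SE 0.31, adjusted p = 0.00014).

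Megakaryocyte granule and cytoskeleton genes moved in both directions. Of 24 measured, 9 were higher in CMP, 8 lower and 7 did not pass, against 10.8% higher and 18.7% lower over all genes. The median difference of the 24 was -0.03, and 14 of them were on in each population. Pf4, the platelet chemokine CXCL4, was at 10.74, 11.78, 10.77, 11.10 and 11.57 in MPPFL- and 14.02, 13.28 and 13.31 in CMP, with no overlap. It rose by 2.34 (SE 0.32, adjusted p = 1.3e-05) and averaged 8.23 in MPPFL+ and 9.24 in GMP. Vwf, von Willebrand factor, was at 6.43, 8.26, 8.21, 8.50 and 7.81 in MPPFL-, lowest on replicate 1, and at 9.86, 10.23 and 10.39 in CMP. The difference was 2.31 (SE 0.45, adjusted p = 0.00053), and 1.96 without MPPFL- replicate 1, but with the spike-in cluster as a block it no longer passed (adjusted p = 0.064). Cavin2, a caveolar coat protein of platelets, was at 6.38, 8.43, 7.59, 7.63 and 8.36 and 8.65, 10.16 and 9.83, a difference of 1.87 (SE 0.34, adjusted p = 0.00029), and lost its call when the 8 arrays were fitted alone. Its mean in MPPFL+ was 2.17, the lowest value of the table.

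F13a1, the A subunit of coagulation factor XIII, had the largest rise of any gene that met the naming rule. It was at 4.18, 4.41, 4.28, 3.80 and 3.86 in MPPFL- and 12.98, 12.12 and 12.34 in CMP, a difference of 8.37 (SE 0.39, adjusted p = 7.8e-12). F13a1 is a gene of platelets and also of monocytes, and its mean in GMP, 13.06, was above that in CMP. Ppbp, pro-platelet basic protein, was at 4.32, 5.54, 2.85, 4.46 and 3.52 in MPPFL- and 6.03, 5.90 and 7.82 in CMP (difference 2.44, SE 0.85, adjusted p = 0.035), and its call was lost in 8 of the alternatives, the replicate block among them. Treml1, a receptor of platelet alpha granules, rose from 3.37 to 5.69 (difference 2.32, SE 0.30, adjusted p = 7.6e-06) without reaching the limit for being on all CMP arrays.

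The 8 megakaryocyte genes that fell were on in MPPFL-, and 2 of them were no longer on in CMP. Selp, P-selectin of platelet granules and endothelium, was at 7.46, 7.91, 8.04, 8.17 and 7.63 in MPPFL- and 2.89, 3.95 and 4.80 in CMP and fell by 3.96 (SE 0.26, adjusted p = 1.2e-09). Gucy1a1, the alpha subunit of the nitric oxide receptor guanylate cyclase, was at 9.49, 9.86, 9.84, 10.13 and 9.88 and 4.53, 5.93 and 6.43 and fell by 4.21 (SE 0.39, adjusted p = 1.5e-07). Neither gene had overlapping arrays. Mmrn1, the factor V carrier multimerin, was at 11.34, 10.61, 11.18, 11.30 and 11.35 and 7.68, 8.70 and 8.13 and fell by 2.98 (SE 0.37, adjusted p = 4.8e-06). Rgs18, a brake on G protein signals in platelets, was at 13.69, 13.27, 13.38, 13.53 and 13.55 and 11.33, 11.60 and 11.22 and fell by 2.10 (SE 0.15, adjusted p = 2.9e-09). In GMP Selp averaged 2.21, Gucy1a1 2.38, Mmrn1 3.32 and Rgs18 11.42. Rab27b, a small GTPase of platelet granule release, was on in both and did not pass (8.01 ± 0.44 and 7.43 ± 0.17, difference -0.58, SE 0.27).

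**Figure D4:**
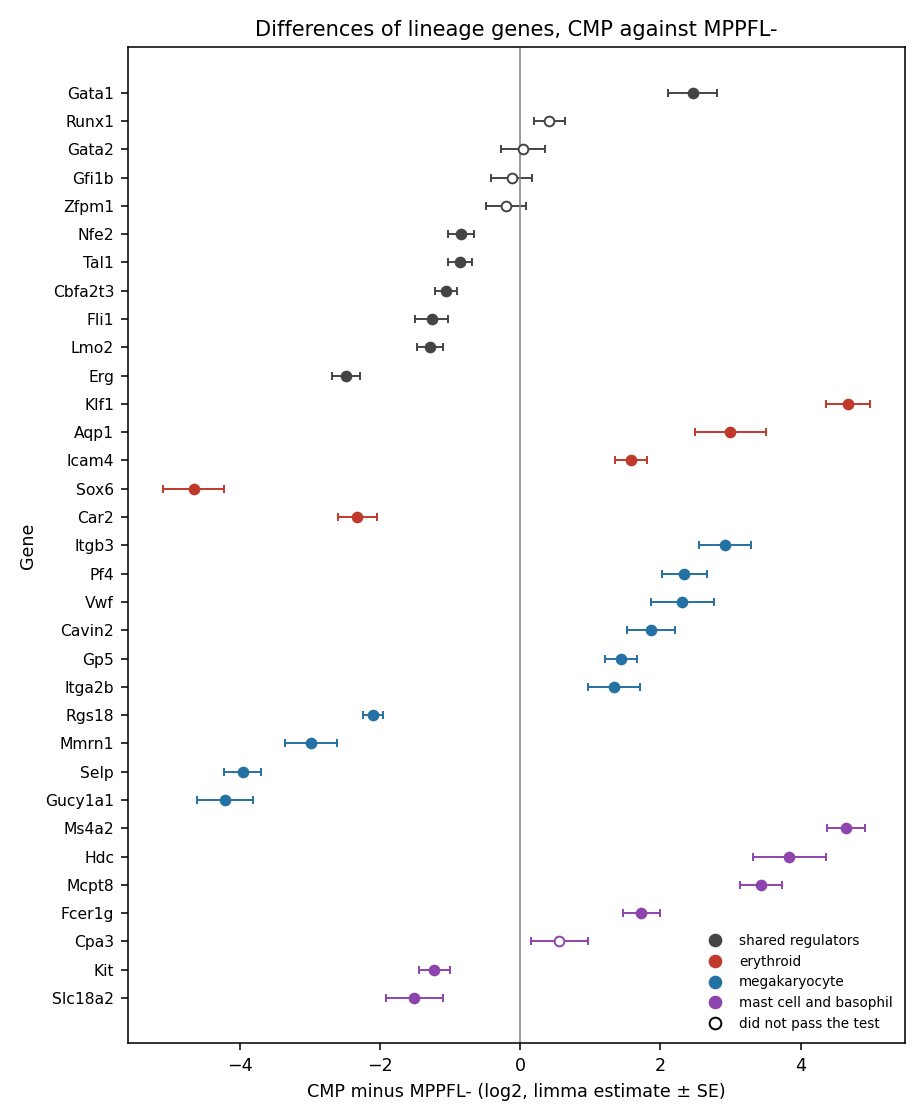
Difference CMP minus MPPFL- (horizontal, log2, limma estimate with its SE as bars) of 33 lineage genes, filled where the gene passed and open where it did not. Klf1 (4.68) and Ms4a2 (4.64) lie farthest to the right and Sox6 (-4.66) farthest to the left, while Gata2, Gfi1b, Zfpm1, Runx1 and Cpa3 are open points.

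The mast cell and basophil genes split into a few that were on in MPPFL- and many at the floor. Of 23 measured, 6 were higher in CMP, 4 lower and 13 did not pass, with a median difference of 0.01. The shares over all genes were 10.8% higher and 18.7% lower, so the number lower was near the general share. In MPPFL- 6 of the 23 were on, against 9 in CMP. Judged by the mean over arrays, 9 were on in MPPFL-. Without CMP replicate 2 or without CMP replicate 3 the number higher was 10, the added ones being Hpgds, Mcpt4, Slc6a4 and Tpsab1, which were at the floor in MPPFL-. Cpa3 was at 9.65, 11.02, 10.96, 10.97 and 11.09 in MPPFL- and at 10.85, 10.81 and 12.23 in CMP. MPPFL- replicate 1 was below its group and CMP replicate 3 above its own, the remaining arrays overlapped, and Cpa3 did not pass (difference 0.56, SE 0.41, adjusted p = 0.36). Without MPPFL- replicate 1 the difference was 0.29. Cpa3 averaged 5.21 in MPPFL+ and 10.39 in GMP.

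Among the genes of the IgE receptor and of histamine, Ms4a2, Fcer1g and Hdc rose and Fcer1a did not pass. Ms4a2, the beta chain of the high-affinity IgE receptor, was at 5.32, 5.95, 4.87, 5.01 and 5.81 in MPPFL- and 9.82, 9.64 and 10.66 in CMP, a difference of 4.64 (SE 0.27, adjusted p = 2.4e-10). Fcer1g, the gamma chain that other Fc receptors share, was at 6.99, 7.87, 7.63, 7.65 and 7.72 and 9.90, 8.86 and 9.14 and rose by 1.73 (SE 0.26, adjusted p = 4.5e-05). Fcer1a, the chain that binds IgE, was near the floor in both, at 2.17, 3.43, 2.17, 2.26 and 2.19 and 2.17, 2.17 and 2.19, and did not pass. Hdc, which makes histamine, was at 5.02, 7.56, 5.64, 6.33 and 7.59 in MPPFL- and 10.61, 10.18 and 10.01 in CMP, a difference of 3.84 (SE 0.52, adjusted p = 1.2e-05), and was higher in GMP, at 13.06. Mcpt8, a basophil protease, was at 4.87, 5.75, 5.12, 5.26 and 6.10 and 8.68, 8.80 and 9.08, rose by 3.43 (SE 0.30, adjusted p = 5.0e-08), and averaged 10.44 in GMP.

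Chymase and tryptase genes, whose products fill mature mast cell granules, were not on in either population. The chymase Cma1 was at the lowest value on 7 of the 8 arrays and at 3.36 on MPPFL- replicate 4, and the mast cell proteases Mcpt1 and Mcpt2 and the tryptases Tpsb2 and Tpsg1 were at the floor in both. The 4 genes that were lower in CMP, Slc18a2, Kit, Mitf and Srgn, were on in both populations. Slc18a2, the vesicular monoamine transporter, was at 11.39, 10.44, 11.10, 11.11 and 11.32 and 9.32, 9.63 and 9.73 and fell by 1.51 (SE 0.41, adjusted p = 0.0073), with no overlap. It averaged 6.44 in MPPFL+ and 6.16 in GMP, so that MPPFL- was the highest of these 4 populations, and its call was lost with the replicate block. Kit, which binds stem cell factor, was at 13.75, 13.39, 13.57, 13.57 and 13.44 and 11.59, 12.91 and 12.46 and fell by 1.22 (SE 0.22, adjusted p = 0.00023). Mitf, a mast cell transcription factor, fell by 1.43 (SE 0.36, adjusted p = 0.0045), and Srgn, the granule proteoglycan serglycin, fell by 0.29 (SE 0.08, adjusted p = 0.0079), which is little more than the shift between scalings.

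Eosinophil genes showed no call in the 7 measured. Siglecf, a lectin receptor of eosinophils, was on in both, at 8.35, 8.87, 8.70, 9.07 and 9.03 in MPPFL- and 8.70, 9.32 and 9.80 in CMP (difference 0.47, SE 0.30, adjusted p = 0.28). Prg2, the major basic protein, was at the lowest value on 7 of the 8 arrays and at 4.40 on CMP replicate 3, and Epx, eosinophil peroxidase, stayed at the floor on all 8. In GMP Prg2 averaged 13.14 and Epx 10.66.

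MPPFL- was also set against MPPFL+ for the same genes, in the same fit. This comparison shares the MPPFL- arrays with that against CMP, so the 2 are given side by side and no overlap between them is drawn. The 3' to 5' difference of actin was 3.12 to 4.08 in MPPFL- and 2.55 to 2.92 in MPPFL+. The ribosomal RNA control was 12.39 to 12.72 and 11.53 to 12.36, while the poly-A controls overlapped (3.63 to 4.68 and 3.75 to 5.09). No fit with the 3' to 5' covariate was run here, and the part of these measures was not tested. Of the 135 lineage genes, 36 were higher in MPPFL- than in MPPFL+ and 5 lower, against 5.25% higher and 10.6% lower over all genes. Without MPPFL+ replicate 1, 3 were lower. The megakaryocyte lists gave 18 of these 36, the erythroid lists 7, the shared regulators 5, the mast cell and basophil list 5 and the eosinophil list 1. Gata1 was higher in MPPFL- by 4.45 (SE 0.36, adjusted p = 6.3e-08), and Gata2 by 2.01 (SE 0.31, adjusted p = 0.00016). Cpa3 was higher by 5.53 (SE 0.41, adjusted p = 2.9e-08), Cavin2 by at least 5.51 (SE 0.34), as it was at the floor in MPPFL+, and Sox6 by 5.60 (SE 0.43). Klf1 was higher by 1.84 (SE 0.31, adjusted p = 0.00031) without being on in either. Car1 (0.00, SE 1.05) did not pass between MPPFL- and MPPFL+, and Ermap was at the floor in both. Tbxa2r, the thromboxane receptor, was lower in MPPFL- by 2.61 (SE 0.24, adjusted p = 3.0e-07), at 6.87, 6.87, 6.33, 6.87 and 6.20 against 9.29, 9.76 and 8.65 in MPPFL+.

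MPPFL- replicate 1 had the lowest of the 5 values for 21 of the 29 lineage genes that were on in MPPFL- and higher there than in MPPFL+ (72.4%). Over all 804 genes of that kind it was the lowest for 39.2%, and over all 8913 genes on in MPPFL- for 35.8%. The median of its difference from the other arrays was -0.51 over the 29 genes. On the same array Flt3 had its highest MPPFL- value, 11.64, and the 3' to 5' difference of actin its lowest, 3.12. Stem cell genes on that array were not low: Hlf was at 13.17 and Mecom at 11.75. Without replicate 1, 73 in place of 71 lineage genes were on in MPPFL-, and the part of these measures in its lower levels was not tested.

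**Figure D5:**
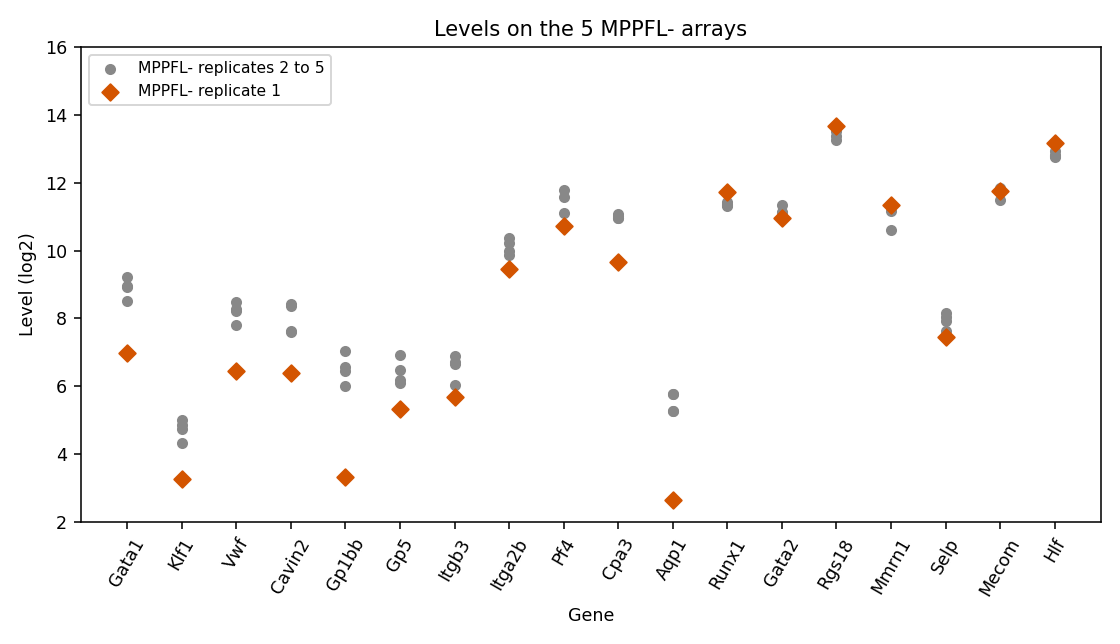
Level (vertical, log2) of 18 genes on the 5 MPPFL- arrays, with replicate 1 as a diamond and replicates 2 to 5 as circles; the genes were chosen after their values were seen. Replicate 1 is the lowest for Gata1, Klf1, Vwf, Cavin2 and Gp1bb and the highest for Runx1, Rgs18 and Hlf.

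Around these lineages, of 26 granulocyte-macrophage genes 21 were higher in CMP and 2 lower, with a median difference of 2.82. Over all genes 10.8% were higher and 18.7% lower. Irf8, a factor of monocytes and dendritic cells, was at 7.91, 8.14, 7.91, 7.86 and 8.16 in MPPFL- and 13.10, 13.35 and 13.71 in CMP, a difference of 5.39 (SE 0.33, adjusted p = 4.0e-10). Csf1r, the macrophage colony-stimulating factor receptor, rose by 5.73 (SE 0.37, adjusted p = 8.4e-10), from 7.14 to 12.87. Mpo, myeloperoxidase, was already high in MPPFL- (13.54, 14.34, 14.04, 13.87 and 14.25) and was at 15.43, 15.41 and 15.59 in CMP. The arrays did not overlap, with an SD of 0.32 in MPPFL- and 0.10 in CMP. The difference was 1.47 (SE 0.54, adjusted p = 0.049), and the call was lost without any 1 of the 8 arrays. This SE pools all populations of the series, among them DN3, where Mpo had an SD of 2.20. The adjusted p near the threshold therefore does not describe the spread of the CMP and MPPFL- arrays.

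Of 30 stem and early progenitor genes 26 were lower in CMP and 1 higher, with a median difference of -1.86. Over all genes 18.7% were lower and 10.8% higher. Procr, the protein C receptor of stem cells, was at 11.86, 11.31, 11.62, 11.83 and 11.60 in MPPFL- and 5.81, 5.94 and 5.81 in CMP and fell by 5.79 (SE 0.39, adjusted p = 1.4e-09). Hlf and Mecom, transcription factors of stem cells, fell by 4.84 (SE 0.25, adjusted p = 2.6e-11) and 4.62 (SE 0.23, adjusted p = 1.9e-11). Fgd5, a stem cell gene, was on in MPPFL- (8.31, 8.25, 8.29, 8.46 and 8.57) and at the floor in CMP (2.76, 2.44 and 2.44), at least 56.9-fold lower. Among the largest changes outside the lists, Ly86, a partner of the receptor RP105, rose by 8.04 (SE 0.33, adjusted p = 9.4e-13), and Slpi, a leukocyte protease inhibitor, by 7.27 (SE 0.22, adjusted p = 1.3e-14).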

How the data were processed

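RNA of progenitor samples was hybridised to Affymetrix mouse arrays, 1 array per sample, after Trizol extraction and biotin labelling, per the labels' protocols. The table deposited by the authors holds 45101 probe sets on 26 arrays on a log2 scale, and their normalization and probe set summary are not given in the sources at hand. The number of arrays limits the precision, and values near the lowest one of the table carry little information.

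Groups were taken from the population and replicate number in each title. Another label spells MPPFL as MMPFL. Of the probe sets, 34945 were named with 1 gene in the platform annotation, 932 with several and 9160 with none, besides 64 controls. The RefSeq table of mouse genes held the gene ID of 34741 of the first kind, and 0 symbols changed. This left 18193 genes, of which 9010 had over 1 probe set and were then read from their brightest one by its mean. Values were used as deposited, without a filter.

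All 26 arrays were fitted with limma (version 3.58.1, R 4.3.3, lmFit and eBayes) with 8 population means and no covariate. A gene passed, rose or fell when its two-sided p, adjusted by Benjamini-Hochberg over all genes, was under 0.05. The code was tested on simulated data. No set test was run.

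The genes fall in 8 lineage lists and 8 lists of other cells and processes, and lists and members were chosen with earlier results of these data known. List members without such a probe set are not reported. Genes are named by a rule. It takes all measured members of the lineage lists, and up to 8 genes each with the largest rise and fall that passed, had no overlapping arrays and had a mean of at least 5.31 in the higher population, genes without an assigned name passed over. It also takes up to 4 passed members of each other list and some genes as a check of the labels, and the text names part of these. The B cell, T cell and endothelial genes named at the floor, Cd79b and the genes of the replicate 1 plot were picked after their values were seen.

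Alternatives were the 8 arrays fitted alone, quantile normalization, median centring, the mean of all probe sets of a gene, each probe set by itself, a filter on dim genes, a trended robust variance, the replicate number as a block, the spike-in cluster as a random block, the 3' to 5' difference as a covariate, other limits for being on, and leaving out each replicate. Replicate numbers were not taken to pair the samples. Leaving out replicate 1 of both populations was chosen after seeing the data.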

Additional observations from a re-analysis of the deposited data

Results flagged for a closer look

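For 14 of the 94 genes printed with values, 1 of the 5 MPPFL- arrays lay far from the rest, the gap to its nearest neighbour being over 0.71 of the range of the 5 arrays (Dixon's criterion). Chance alone gives such a gap in about 1 in 20 groups. CMP, with 3 arrays, was not examined in this way. In 8 of the 14 the array was below the others.

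Replicate 1 was the array in 5 of the 14, and was the lowest in each. It was at 2.64 for Aqp1, 3.31 for Gp1bb, 9.65 for Cpa3, 6.99 for Fcer1g and 13.30 for F2r. Replicate 2 was high for Epor (3.22), Alas1 (9.69) and Fcer1a (3.43) and low for Mmrn1 (10.61). Replicate 4 was low for E2f2 (6.33) and high for Cma1 (3.36), which was otherwise at the lowest value. Replicate 5 was low for Mecom (11.49) and high for Hspa1a (5.10), and its Ermap value of 2.23 differed from the others by less than 0.1.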

How the results depend on the processing

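Of the 175 genes the naming rule took, 113 passed, and 68 of these kept their call and direction in each alternative that gave a value. The direction turned for 3 genes, all with the mean of probe sets: Etv6 at 1.05, Klf3 at 0.078 and Cpox at 0.46. Testing every probe set by itself gave 3847 higher and 7004 lower. The spike-in cluster as a random block changed 40 of the 175 calls and gave 736 genes higher and 1472 lower, with 14 erythroid genes higher and 3 lower, 10 megakaryocyte genes higher, 1 mast cell gene lower and 3 shared regulators lower. With the 8 arrays alone 6 erythroid genes were lower, 10 megakaryocyte genes higher and 2 shared regulators higher. With the 3' to 5' covariate 4 erythroid and 2 mast cell genes were lower. Shared regulators higher in CMP numbered 4 with quantile normalization, median centring or the mean of probe sets, and 2 without replicate 1 of both populations. The cause of these changes was not tested.

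Same-numbered arrays of CMP and MPPFL- did not deviate together (correlations of -0.21, -0.16 and 0.05), so the numbers were not read as pairs. With the replicate block 1395 genes were higher and 2781 lower. The erythroid lists then gave 17 higher and 6 lower, the megakaryocyte lists 15 and 9, the mast cell list 5 and 3, and the shared regulators 1 and 6. Against MPPFL+, the block gave 29 lineage genes higher and 4 lower.

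Leaving out 1 array at a time gave 1738 to 2898 genes higher in CMP, the most without CMP replicate 2, and 3132 to 3330 lower. Erythroid genes higher ranged from 18 to 21 and lower from 8 to 10, megakaryocyte genes from 16 to 18 and 7 to 9, mast cell genes from 5 to 10 and 3 to 4, and shared regulators from 1 to 2 and 6 to 7. Lineage genes on in MPPFL- ranged from 71 to 73, and those higher than in MPPFL+ from 28 to 36 and lower from 3 to 5. With other limits for being on, 64 to 75 lineage genes were on in MPPFL-, 6 to 9 of them mast cell genes. The numbers left unmentioned stayed within 1.5 times those reported.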

Other observations

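Genes of cell division and of early lymphoid cells also differed between CMP and MPPFL-. All 29 measured cell cycle genes were on in both populations. In CMP 12 were higher, 2 lower and 15 did not pass, with a median difference of 0.41. Over the genes that were not dim the median difference was -0.22. Among all genes on in MPPFL-, 15.3% were higher in CMP and 34.4% lower. E2f1, a factor of entry into DNA synthesis, was at 6.99, 7.48, 6.84, 6.49 and 6.67 in MPPFL- and 9.40 to 10.20 in CMP, a difference of 2.97 (SE 0.32, adjusted p = 7.8e-07), and Plk1, a mitotic kinase, rose by 2.54 (SE 0.31, adjusted p = 4.1e-06). Of 16 early lymphoid genes 6 were higher in CMP and 1 lower, against 10.8% higher and 18.7% lower over all genes. Dntt, terminal transferase, was at 8.36, 7.58, 7.71, 7.50 and 8.11 in MPPFL- and 11.61, 10.47 and 11.45 in CMP, a difference of 3.33 (SE 0.21, adjusted p = 6.0e-10), and Ighm, the immunoglobulin heavy chain gene, rose by 3.38 (SE 0.25, adjusted p = 6.4e-09). No array of the 2 populations overlapped for these 4 genes. Both lymphoid genes were higher in MPPFL+ than in MPPFL- (limma, same threshold), where Dntt averaged 13.08 and Ighm 12.35, and GMP had Dntt at the floor and Ighm at 12.35.

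Of 20 stress and immediate early genes 7 were higher in CMP and none lower at an adjusted p under 0.05. The shares over all genes were 10.8% higher and 18.7% lower. Hspa1a, an inducible heat shock protein, was at 2.17, 2.38, 2.62, 2.17 and 5.10 in MPPFL- and 10.19, 8.43 and 9.90 in CMP, a difference of 6.62 (SE 1.27, adjusted p = 0.00044). Klf4, a factor of monocytes that also responds to stress, rose by 5.03 (SE 1.13, adjusted p = 0.0018), from 4.74 to 9.77. Both calls were lost with the spike-in cluster as a random block, and that of Klf4 with the 3' to 5' covariate.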
